A study of Mus musculus with 72 samples.

Results

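The 39 lysosome genes described here were chosen by symbol as known lysosomal genes, with earlier results of these data known. Member counts set beside shares of all genes are therefore descriptions, not tests of the list. All 39 were found by Ensembl identifier among the 55416 genes counted. They fell into 6 roles, with 8 membrane proteins and transporters, 11 proteases, 9 glycosidases and glycosaminoglycan enzymes, 4 lipid-handling proteins, 5 proton pump subunits or partners and 2 regulators. Lysosomes are acidic compartments in which cells break down proteins, sugar chains and lipids taken up from outside or delivered from within. A vacuolar proton pump keeps them acidic, soluble hydrolases do the digestion, and proteins of the limiting membrane protect the compartment and export its products. In adipose tissue, macrophages that take up lipid from dying adipocytes carry many lysosomes and use lysosomal acid lipase to break down that lipid, and the transcription factor TFEB and its relatives switch on many lysosomal genes through a short promoter element.

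RNA was sequenced from epididymal white adipose tissue (eWAT), liver and pituitary of 24 male FVB.129P2 mice, 6 in each of 4 groups, which gave 72 libraries. FED mice were born to dams fed ad libitum, and CR20 mice to dams given 20% less food than a paired FED dam from late gestation until weaning. From 8 weeks of age the offspring ate a 10% fat control diet (CTRL) or a 45% fat diet (HFD) for 10 weeks, so the groups were FED-CTRL, FED-HFD, CR20-CTRL and CR20-HFD. The calorie restriction was applied to the dam, and no mouse carried an engineered allele that the labels name. Pups of a dam were assigned to either diet. The labels do not give each mouse's litter, so mice of a group, or of the CTRL and HFD groups, may be littermates. Library totals ran from 11589675 to 22364963 counts in eWAT, from 9842813 to 19928212 in liver and from 18299494 to 27601208 in pituitary. Adipocyte, hepatocyte and pituitary hormone genes were highest in the tissue labelled with them. In eWAT, the CPM (counts scaled to library size, with TMM factors) of epididymis and testis genes summed to 135 and 52.3 in CR20-CTRL mice 4 and 5 and to 26.7 CPM in CR20-HFD mouse 6, with at most 0.0506 CPM in any mouse of the FED groups. In eWAT the FED-HFD mouse 23 stood apart from the other 5 of its group, so member calls lost without it are named. Over all eWAT genes the median log2 fold change of FED-HFD vs FED-CTRL was -0.00 and that of CR20-HFD vs FED-HFD was 0.02.

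Promoters are shown because some members carry in them the element through which TFEB acts, whose core is CACGTG and whose longer form is TCACGTG, searched on both strands and so also read as CACGTGA. Each longer match contains the core. In the window from 250 bases before to 50 bases after the canonical start (GRCm39 with GENCODE M39), 10 of the 39 members held the longer form, or 25.6%, against 4.17% of 21627 protein-coding genes, and 11 held the core, or 28.2% against 7.85%. Among 68 other lysosomal genes, 23.5% held the longer form and 25% the core, so the element was not particular to the members. The members with the longer form were the glycosidases and sulfatase Gaa, Gla, Glb1, Naglu and Sgsh, the membrane proteins Cln3, Lamp1 and Mcoln1, and the cathepsins Ctsb and Ctsd, while Atp6v1a held the core alone. The 150 bases before the start, with the element in capitals, are given for members that hold it and differ in how much they moved in eWAT, and for Lipa and Ctss, which moved most among enzymes and hold none in this window.
Gla (chrX:133501905-133502054, minus strand): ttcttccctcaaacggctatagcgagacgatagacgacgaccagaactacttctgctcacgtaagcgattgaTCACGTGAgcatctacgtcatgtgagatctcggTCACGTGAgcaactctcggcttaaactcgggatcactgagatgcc
Cln3 (chr7:126182420-126182569, minus strand): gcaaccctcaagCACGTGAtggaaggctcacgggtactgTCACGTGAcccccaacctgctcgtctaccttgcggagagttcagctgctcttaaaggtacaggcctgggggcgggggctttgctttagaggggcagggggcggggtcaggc
Ctsd (chr7:141941776-141941925, minus strand): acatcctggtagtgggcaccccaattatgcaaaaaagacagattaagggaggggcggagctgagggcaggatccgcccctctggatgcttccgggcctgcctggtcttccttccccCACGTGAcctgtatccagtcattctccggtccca
Glb1 (chr9:114229994-114230143, plus strand): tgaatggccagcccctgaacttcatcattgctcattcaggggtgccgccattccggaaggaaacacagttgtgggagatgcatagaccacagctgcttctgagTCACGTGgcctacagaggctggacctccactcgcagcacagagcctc
Gaa (chr11:119158563-119158712, plus strand): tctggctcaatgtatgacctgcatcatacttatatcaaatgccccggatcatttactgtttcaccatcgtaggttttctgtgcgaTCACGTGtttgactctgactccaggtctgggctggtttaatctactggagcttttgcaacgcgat
Lipa (chr19:34504881-34505030, minus strand): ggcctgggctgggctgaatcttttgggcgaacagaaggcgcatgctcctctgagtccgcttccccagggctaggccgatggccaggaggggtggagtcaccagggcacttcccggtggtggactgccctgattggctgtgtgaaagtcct
Ctss (chr3:95433939-95434088, plus strand): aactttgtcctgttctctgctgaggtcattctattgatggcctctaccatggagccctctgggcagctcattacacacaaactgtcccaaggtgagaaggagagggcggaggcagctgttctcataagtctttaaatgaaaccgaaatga
A match is a description of the letters, not of binding. The 10 members with the longer form had a median log2 fold change (log2FC) of -0.40 in CR20-HFD vs FED-HFD, with 4 of the 10 called (by the thresholds given with the eWAT results), and the 29 without it had a median of -0.86, with 19 of 29 called. Without FED-HFD mouse 23, which stood apart, the counts were 2 of 10 (median -0.30) and 15 of 29 (median -0.58), and the difference between the sets was not tested. The range with the form ran from -1.93 (Gla) to -0.07 (Gaa), so the largest and the smallest glycosidase changes were both in promoters that held it.

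In eWAT of offspring from FED dams, part of the lysosome genes were called higher on the high fat diet, 11 of them without FED-HFD mouse 23. In FED-HFD vs FED-CTRL, called the FED diet comparison from here on, 22 of the 39 members rose and none fell, where a call needed an adjusted p below 0.055 and an absolute log2FC of at least 0.58, the thresholds of the study's methods. Of all 15964 genes tested in eWAT, 6.42% rose in that comparison. These counts are from edgeR, and limma voom with quality weights, the method of the study, called 14 members. The share of all genes that limma called higher is not given here. The members' median log2FC was 0.66, and 38 of 39 were above 0. The summed CPM of the 39 members was 12564 to 14067 in FED-CTRL mice (median 13731) and 16327 to 44967 in FED-HFD mice (median 19171), without overlap. For 18 of the 39 members every FED-HFD mouse lay above every FED-CTRL mouse, which held for 4.06% of all genes tested. The CR20 groups address whether the dam's nutrition altered this, and their summed CPM stayed at 11296 to 14778 in CR20-CTRL (median 12949) and 10712 to 13752 in CR20-HFD (median 12115).

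**Figure D1:**
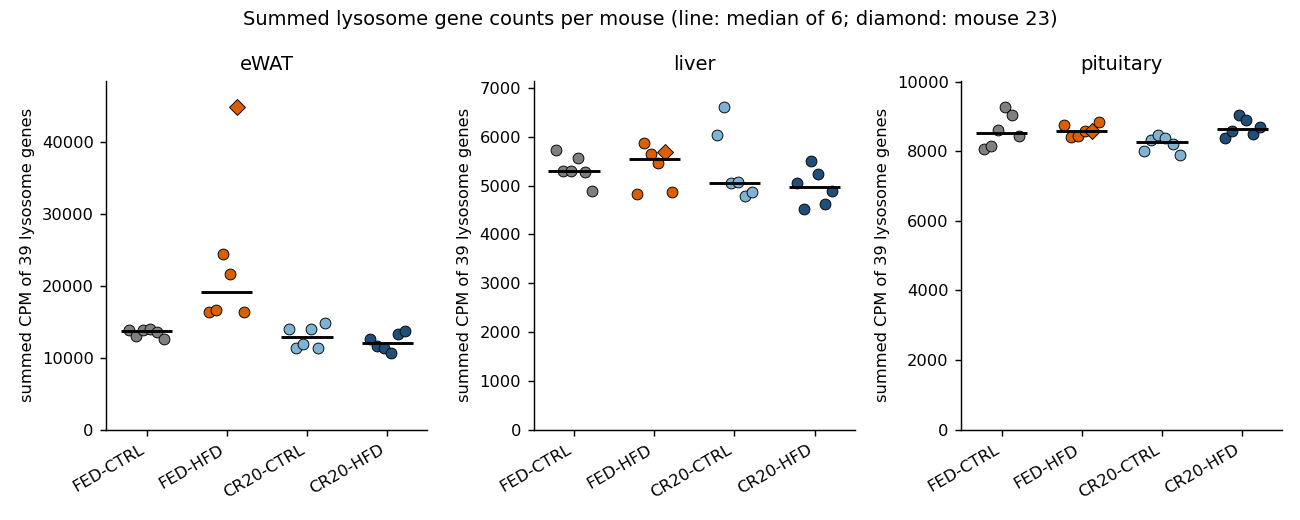
Summed CPM of the 39 lysosome genes per mouse (y axes, linear from 0) in eWAT, liver and pituitary, by group (x axes); each point is 1 mouse, lines are medians of 6 and the diamond is FED-HFD mouse 23. In eWAT the FED-HFD mice lie from 16327 to 44967, above all mice of the other groups; in liver and pituitary the groups overlap.

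On the high fat diet, part of the members were called lower in offspring of restricted dams, 17 of them without mouse 23. In CR20-HFD vs FED-HFD, called the HFD maternal comparison from here on, 23 of 39 members fell and none rose (7.29% of all genes fell), the median log2FC was -0.75, and all 39 values were negative. For 23 members every CR20-HFD mouse lay below every FED-HFD mouse, against 4.17% of all genes. These comparisons share the FED-HFD mice, so 1 high or low FED-HFD library moves both. Side by side, 21 members were called in both, Tfeb in the first alone, Ctsd and Ctsl in the second alone, and 15 in neither. In 14 of 39 members every FED-HFD mouse lay above every mouse of the other 3 groups, which held for 1.21% of all genes tested. The 5 FED-HFD mice other than mouse 23 did so for the same 14 members and for 1.22% of all genes.

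Within the CR20 offspring no member was called by edgeR in CR20-HFD vs CR20-CTRL (the CR20 diet comparison), where 0% of all genes were called. Member log2FC ran from -0.33 to 0.08 with a median of -0.09, the smallest adjusted p was 0.945, and 0 members had an unadjusted p below 0.05, against 6.03% of all genes. On the control diet, CR20-CTRL vs FED-CTRL (the CTRL maternal comparison) also gave no member (0% of all genes), with log2FC from -0.27 to 0.23, a median of 0.00, a smallest adjusted p of 0.725 and 0 members at an unadjusted p below 0.05, against 7.39% of all genes. DESeq2 and limma voom, with and without quality weights, called 0 members in both. A p above the threshold does not show that the groups were alike.

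**Figure D2:**
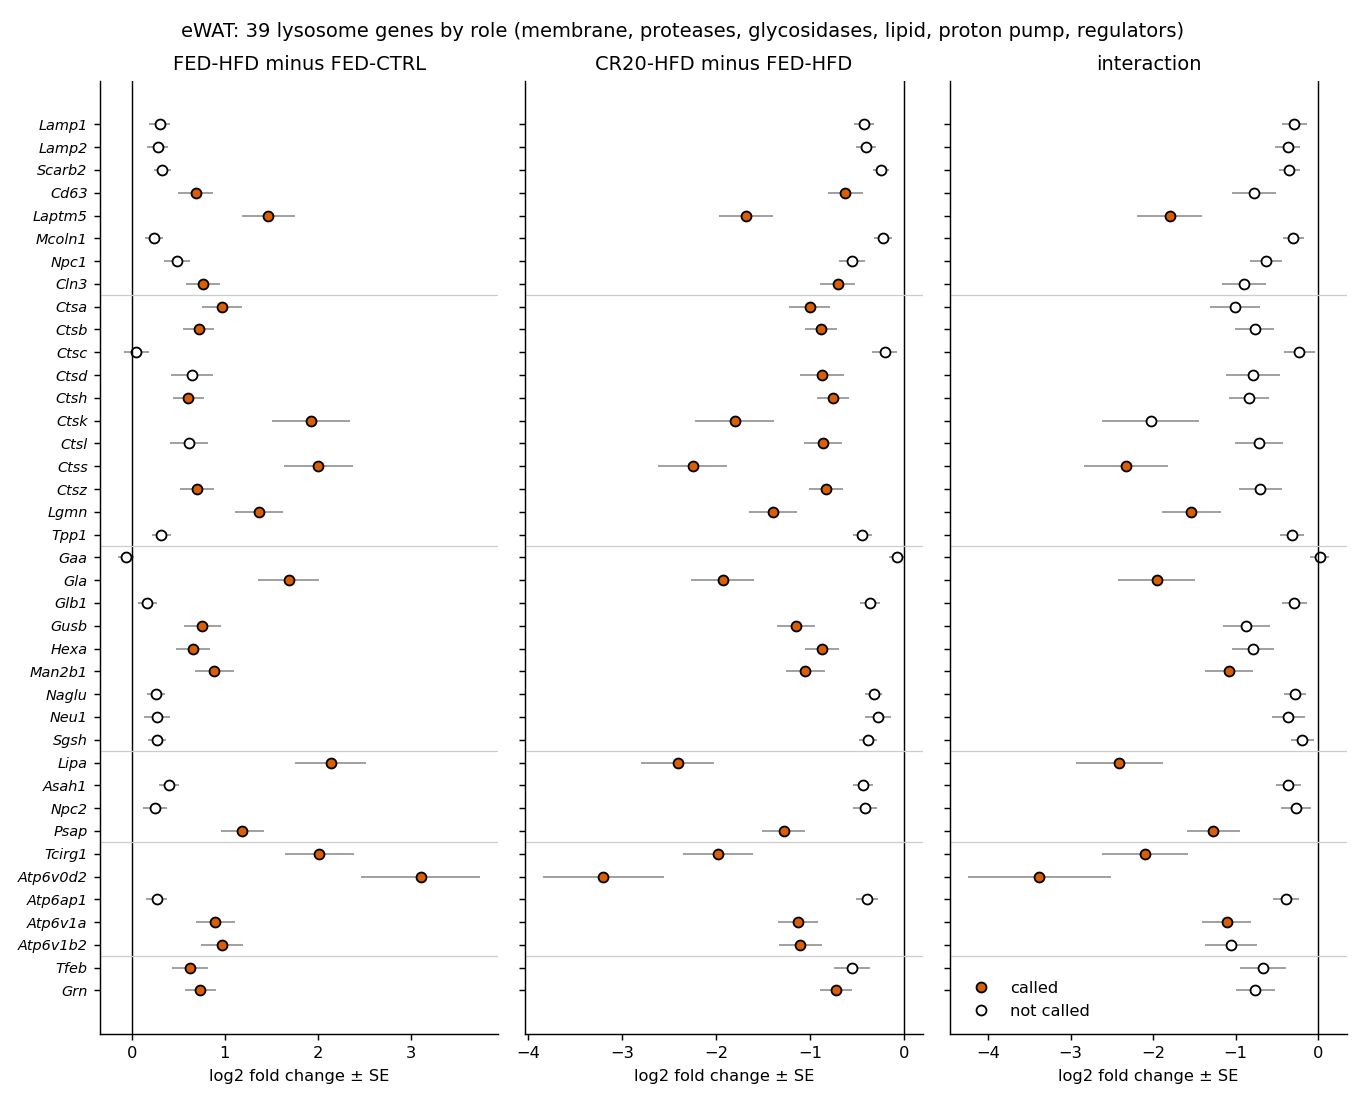
log2 fold change with its standard error (x axes) of each member in eWAT, ordered by role with grey lines between roles, for the FED diet comparison, the HFD maternal comparison and the interaction of maternal group and diet; filled points were called. Called members number 22, 23 and 10, and Atp6v0d2 lies farthest from 0 in each.

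Mouse 23 had the highest CPM of its group for 37 of 39 members and a summed CPM of 44967, against 16327 to 24422 in the other 5 FED-HFD mice. Without it, 11 members rose in the FED diet comparison with a median of 0.39, while 3.41% of all genes rose. Without it 17 fell in the HFD maternal comparison with a median of -0.52, while 4.19% of all genes fell. The 11 were Laptm5, Ctsk, Ctss, Lgmn, Gla, Man2b1, Lipa, Psap, Tcirg1, Atp6v0d2 and Atp6v1b2, and they were called in all 24 fits that left out 1 mouse. The 17 were the same 11 with Ctsa, Ctsb, Ctsl, Gusb, Hexa and Atp6v1a. The calls lost without mouse 23 were thus Cd63, Cln3, Ctsa, Ctsb, Ctsh, Ctsz, Gusb, Hexa, Atp6v1a, Grn and Tfeb in the FED diet comparison and Cd63, Cln3, Ctsd, Ctsh, Ctsz and Grn in the HFD maternal comparison. Lipa, for example, had a log2FC of 1.44 (SE 0.249, adjusted p = 0.00234) without mouse 23 and 2.14 with it.

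Of the membrane proteins and transporters, 3 of 8 rose in the FED diet comparison and 3 of 8 fell in the HFD maternal comparison, and they were the same 3, Laptm5, Cd63 and Cln3. Laptm5, a lysosomal transmembrane protein of blood-derived cells, was at 69.4, 97.6 and 118 CPM (lowest, median, highest mouse) in FED-CTRL and at 149, 208 and 640.3 CPM in FED-HFD. In CR20-CTRL it was at 60.8, 109 and 140.3 CPM and in CR20-HFD at 69.8, 85.5 and 91.8 CPM. All FED-HFD mice were thus above all others. Its log2FC was 1.47 (SE 0.283, adjusted p = 0.00331) for the FED diet comparison and -1.68 (SE 0.285, adjusted p = 0.000824) for the HFD maternal comparison. The tetraspanin Cd63 changed by 0.69 and -0.62 (log2FC in the FED diet and then the HFD maternal comparison, the order used for all pairs of values), and Cln3, lost in a juvenile neuronal storage disease, by 0.77 and -0.70. Without mouse 23, Cd63 (0.37 and -0.30) and Cln3 (0.48 and -0.41) were called in neither comparison, so that Laptm5 (1.00 and -1.20) was the only membrane protein still called.

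Npc1, the membrane partner in cholesterol export from lysosomes, was at 43.5, 45.4 and 49.9 CPM in FED-CTRL, 47.5, 60.3 and 102 in FED-HFD, 40, 47.6 and 59 in CR20-CTRL and 39.5, 43.3 and 51.9 in CR20-HFD. The groups overlapped. With log2FC of 0.49 (adjusted p = 0.0229) and -0.55 (adjusted p = 0.00921) it passed the p threshold and missed the fold minimum in both comparisons. Mcoln1, a lysosomal calcium channel, was at 42.1, 44.7 and 47.1 CPM in FED-CTRL, 43.9, 50.1 and 74.1 in FED-HFD, 43.2, 47.5 and 50.7 in CR20-CTRL and 40, 45.4 and 50.5 in CR20-HFD, with values of 0.24 and -0.22 (adjusted p = 0.105 and 0.122). The general lysosome markers Lamp1 (0.30 and -0.42) and Lamp2 (0.28 and -0.40) and the receptor Scarb2 (0.33 and -0.24) were not called. For Lamp1, which an antisense gene overlaps, every FED-HFD mouse still lay above every other mouse, at 852 CPM or more against at most 850.4.

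Among the proteases, 7 of 11 rose in the FED diet comparison and 9 of 11 fell in the HFD maternal comparison. Ctss, a cysteine cathepsin of antigen-presenting cells, was at 145, 192 and 247 CPM in FED-CTRL, 363, 624 and 1930 in FED-HFD, 80.6, 245 and 284 in CR20-CTRL and 109, 167 and 234 in CR20-HFD. The FED-HFD mice did not overlap with any other group. Its log2FC was 2.01 (SE 0.367, adjusted p = 0.00297) and then -2.25 (SE 0.371, adjusted p = 0.000691), a 4.03-fold and a 4.77-fold difference. Lgmn, an asparaginyl endopeptidase that activates cathepsins, was at 114, 132 and 153 CPM in FED-CTRL, 195, 265 and 750.3 in FED-HFD, 105, 149 and 193 in CR20-CTRL and 95.4, 134 and 163 in CR20-HFD. It too separated FED-HFD from all other mice, with 1.37 (SE 0.254, adjusted p = 0.00297) and -1.39 (SE 0.255, adjusted p = 0.00117).

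Ctsk, the collagen-degrading cathepsin of osteoclasts, which lies beside Ctss on chromosome 3, had log2FC of 1.93 and -1.80 with larger standard errors (0.424 and 0.423). Without mouse 23 its values were 1.26 and -1.12, both still called. Ctsa (0.97 and -1.00), Ctsb (0.72 and -0.88), Ctsz (0.70 and -0.83) and Ctsh (0.61 and -0.75) were called in both comparisons. Without mouse 23, Ctsa (0.55 and -0.58) and Ctsb (0.47 and -0.63) were called in the HFD maternal comparison alone, and Ctsz (0.40 and -0.53) and Ctsh (0.39 and -0.52) in neither. Ctsd, the main aspartic protease of lysosomes (0.65, adjusted p = 0.0706), and Ctsl (0.62, adjusted p = 0.057) missed the p threshold in the FED diet comparison and fell in the HFD maternal comparison by 0.87 and 0.86 on the log2 scale. Without mouse 23 the fall of Ctsd was not called (-0.52), and that of Ctsl was (-0.61). Tpp1, a tripeptidyl peptidase, passed the p threshold in both but not the fold minimum (0.32 and -0.44). Ctsc, the dipeptidyl peptidase that activates granule proteases, was not called, at 104, 129.7 and 137 CPM in FED-CTRL, 109, 116 and 177 in FED-HFD, 108, 125 and 167 in CR20-CTRL and 88.5, 111 and 148 in CR20-HFD. Its log2FC of 0.05 (adjusted p = 0.839) in the FED diet comparison turned to -0.05 without mouse 23.

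Of the glycosidases and glycosaminoglycan enzymes, the same 4 of 9 rose in the FED diet comparison and fell in the HFD maternal comparison, namely Gla, Man2b1, Gusb and Hexa. Gla, the alpha-galactosidase deficient in Fabry disease, whose promoter held 2 copies of the longer element, was at 11.6, 14.5 and 17.6 CPM in FED-CTRL, 21.1, 32.2 and 125 in FED-HFD, 9.83, 15.7 and 20.6 in CR20-CTRL and 9.31, 12.4 and 15.7 in CR20-HFD. The FED-HFD mice were above all others. Its log2FC was 1.69 (SE 0.329, adjusted p = 0.00335) and -1.93 (SE 0.333, adjusted p = 0.000856). Gusb, the beta-glucuronidase, was at 139, 155 and 181 CPM in FED-CTRL, 167, 226 and 526 in FED-HFD, 108, 126 and 159 in CR20-CTRL and 102, 122 and 134 in CR20-HFD, with values of 0.76 (SE 0.199, adjusted p = 0.0172) and -1.15 (SE 0.201, adjusted p = 0.000896). FED-HFD overlapped with FED-CTRL and not with the CR20-HFD group, and the rise was not called without mouse 23 (0.44). The rise was also not called by limma voom with quality weights (0.55) or with only the groups compared (0.76).

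The lysosomal mannosidase Man2b1 changed by 0.89 and -1.05 and the hexosaminidase subunit Hexa by 0.66 and -0.87 (log2FC). Without mouse 23, Hexa was called only in the HFD maternal comparison (0.40 and -0.60). At the other end, Gaa, the acid glucosidase that degrades glycogen in lysosomes, was at 129.7, 150.1 and 167 CPM in FED-CTRL, 123, 146 and 162 in FED-HFD, 128, 135 and 163 in CR20-CTRL and 122, 135 and 146 in CR20-HFD. It was the only member below 0 in the FED diet comparison (-0.06, SE 0.0817), and mouse 23, at 126 CPM, was near the bottom of its group. Glb1, Naglu, Neu1 and Sgsh, which remove terminal sugars or sulfate, were not called, with log2FC of 0.17, 0.26, 0.27 and 0.27 and of -0.36, -0.32, -0.27 and -0.38.

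**Figure D3:**
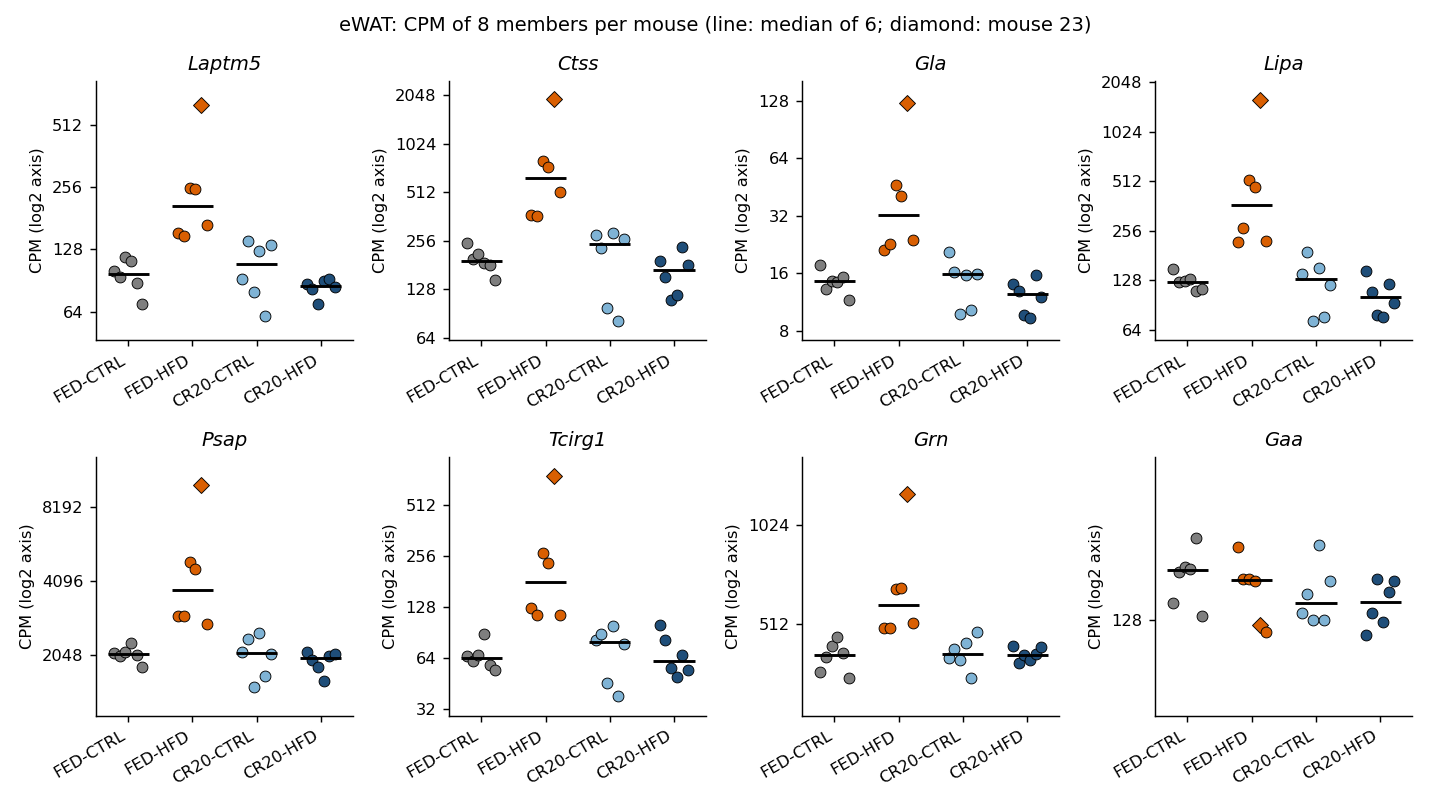
CPM of 8 members in eWAT per mouse (y axes, log2 scale) by group (x axes); each point is 1 mouse, lines are medians of 6 and the diamond is FED-HFD mouse 23. Laptm5, Ctss, Gla, Lipa, Psap, Tcirg1 and Grn in all 6 FED-HFD mice lie above every other mouse, while Gaa lies between 122 and 167 CPM in all groups.

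Among lipid-handling proteins, Lipa and Psap rose in the FED diet comparison and fell in the HFD maternal comparison. Lipa, the acid lipase that hydrolyses cholesteryl esters and triglycerides in lysosomes, was at 110.0, 125 and 150.1 CPM in FED-CTRL, 218, 369 and 1602 in FED-HFD, 72.2, 129.7 and 191 in CR20-CTRL and 76, 101 and 145 in CR20-HFD. The lowest FED-HFD mouse exceeded the highest mouse of the other groups. Its log2FC was 2.14 (SE 0.383, adjusted p = 0.00297), or 4.4-fold, and -2.41 (SE 0.387, adjusted p = 0.000611), or 5.32-fold. Psap, the precursor of saposins that help degrade sphingolipids, was at 1832, 2071 and 2297 CPM in FED-CTRL, 2735, 3764 and 10078 in FED-HFD, 1513, 2091 and 2518 in CR20-CTRL and 1603, 1993 and 2109 in CR20-HFD. No FED-HFD mouse overlapped with the others, and the log2FC were 1.19 (adjusted p = 0.00336) and -1.28 (adjusted p = 0.00113). The acid ceramidase Asah1 (0.40, adjusted p = 0.0192; -0.43, adjusted p = 0.00978) passed on p alone. Npc2, the soluble cholesterol carrier that works with Npc1, was at 905, 987 and 1047 CPM in FED-CTRL, 1037, 1163 and 1269 in FED-HFD, 504, 887 and 1129 in CR20-CTRL and 723, 848 and 1017 in CR20-HFD (0.25, adjusted p = 0.244; -0.41, adjusted p = 0.0367).

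The proton pump had the widest range, and 4 of its 5 members were called in each comparison. Atp6v0d2, a d subunit isoform abundant in osteoclasts and macrophages, was at 10.8, 16.6 and 24.8 CPM in FED-CTRL, 45.7, 86.7 and 427 in FED-HFD, 2.71, 22.3 and 30.5 in CR20-CTRL and 2.1, 17.9 and 26.9 in CR20-HFD. All FED-HFD mice lay above the rest, and its log2FC of 3.11 (SE 0.638, adjusted p = 0.00409) and -3.20 (SE 0.643, adjusted p = 0.00208) were the largest of the 39 members. It was also uneven within the CR20 groups, with CR20-CTRL mice 33 and 48 at 2.71 and 4.71 CPM and CR20-HFD mice 32 and 31 at 2.1 and 5.53 CPM, while the other 8 CR20 mice were at 14.3 CPM or more. Tcirg1, the a3 subunit, was at 54.2, 63.8 and 88.5 CPM in FED-CTRL, 115, 178 and 753 in FED-HFD, 38.1, 79.4 and 99.2 in CR20-CTRL and 49.6, 61.2 and 100.1 in CR20-HFD. It did not overlap between FED-HFD and any other group (2.02, SE 0.375, adjusted p = 0.00297; -1.98, SE 0.375, adjusted p = 0.00134).

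Atp6v1a, the catalytic A subunit, was at 119, 129 and 151 CPM in FED-CTRL, 140.3, 196 and 515 in FED-HFD, 105, 136 and 142 in CR20-CTRL and 98, 112 and 125 in CR20-HFD. It overlapped between FED-HFD and FED-CTRL and rose by 0.90 (SE 0.212, adjusted p = 0.00844), which was 0.54 and no longer called without mouse 23, and fell by 1.13 on the log2 scale (adjusted p = 0.00135) in the HFD maternal comparison. The rise was also not called with only the groups compared (0.90), and the fall was still called without mouse 23 (-0.75). The B subunit Atp6v1b2 changed by 0.97 and -1.10, and by 0.59 and -0.72, both still called, without mouse 23. The accessory protein Atp6ap1 was at 175, 185 and 188 CPM in FED-CTRL, 183, 198 and 341 in FED-HFD, 165, 182 and 208 in CR20-CTRL and 156, 168 and 181 in CR20-HFD, and was not called (0.27, adjusted p = 0.135; -0.39, adjusted p = 0.0228).

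Both regulators rose in the FED diet comparison. Grn, progranulin, which is processed in lysosomes to granulins, was at 351, 412 and 468 CPM in FED-CTRL, 499, 584 and 1269 in FED-HFD, 351, 416 and 485 in CR20-CTRL and 389, 413 and 439 in CR20-HFD. FED-HFD lay above all other mice (0.74, adjusted p = 0.0069; -0.72, adjusted p = 0.00609), and without mouse 23 the values were 0.47 and -0.44, under the fold minimum. By limma voom with quality weights they were 0.54 and -0.50, also under it. Tfeb, the transcription factor of lysosomal genes, was at 19.6, 21.7 and 23.7 CPM in FED-CTRL, 20.7, 28.3 and 64.5 in FED-HFD, 16.1, 24 and 28.1 in CR20-CTRL and 20.6, 23 and 25.5 in CR20-HFD. The groups overlapped, its rise of 0.63 (adjusted p = 0.0409) was 0.33 and not called without mouse 23, and in the HFD maternal comparison its log2FC of -0.55 missed both limits (adjusted p = 0.0592). The rise of Tfeb was called in 17 of the 24 fits that left out 1 mouse, and was also lost without FED-CTRL mice 14, 15, 16, 41 or 42 or FED-HFD mouse 12 (0.60 to 0.65). It was not called by limma voom with (0.43) or without (0.53) quality weights, with no filter (0.61), with only the groups compared (0.63) or once the ranges of animal numbers were a covariate (0.56).

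The interaction of maternal group and diet asks whether the response to the high fat diet differed between FED and CR20 offspring. It was called negative for 10 of 39 members, none positive, with 2.34% of all genes negative, and 32 members had an unadjusted p below 0.05, against 18.2% of all genes. The 10 were Atp6v0d2 (-3.38, adjusted p = 0.0423), Lipa (-2.41, adjusted p = 0.0322), Ctss (-2.33, adjusted p = 0.0322), Tcirg1 (-2.10, adjusted p = 0.0381), Gla (-1.96, adjusted p = 0.0344), Laptm5 (-1.80, adjusted p = 0.0322), Lgmn (-1.54, adjusted p = 0.0327), Psap (-1.27, adjusted p = 0.0423), Atp6v1a (-1.11, adjusted p = 0.0496) and Man2b1 (-1.08, adjusted p = 0.0522). These calls sat close to the threshold. The count was 9 by limma voom with quality weights, 0 by limma voom without them and 19 by DESeq2. Leaving out 1 mouse gave 0 to 19 called members, with 0 in the fits without CR20-CTRL mice 5, 47 or 49, CR20-HFD mice 31 or 32 or FED-CTRL mice 15, 16, 41 or 42. The share of all genes is not given for these tools or, mouse 23 aside, for these fits. A count of 0 is thus not shown to be particular to the members. Without mouse 23, where 1.7% of all genes were called negative, Atp6v0d2 (-2.61, adjusted p = 0.0855) and Man2b1 (-0.79, adjusted p = 0.072) were lost and the count was 8. It was 4 to 6 without CR20-CTRL mouse 4, CR20-HFD mice 7 or 46, FED-CTRL mice 14 or 24 or FED-HFD mice 12 or 13, and 18 or 19 without FED-HFD mice 10, 11 or 40. The fit without the 3 eWAT libraries that held epididymis genes, chosen after the marker sums were seen, also gave 0, while it gave 23 and 23 for the FED diet and HFD maternal comparisons.

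Beside the members stood 68 other lysosomal genes of the same kinds of role; both lists were chosen with results of these data known, and the difference between them was not tested. In the FED diet comparison 11 of the 68 rose and none fell (median log2FC 0.16, with 6.42% of all genes rising), in the HFD maternal comparison the same number fell and none rose (median -0.20, with 7.29% of all genes falling), and 1, Slc11a1, was called in the interaction. Without mouse 23 the counts were 3 (Slc11a1, Dnase2a and Mitf) and 4 (Slc11a1, Dnase2a, Atp6v0a1 and Galc) of 68, where 3.41% and 4.19% of all genes were called in those directions. Slc11a1, a metal transporter of phagosomes, was at 37.4, 48.2 and 50.3 CPM in FED-CTRL, 68.1, 103 and 400.3 in FED-HFD, 32.9, 44.6 and 54.8 in CR20-CTRL and 29.3, 40.3 and 53.8 in CR20-HFD, so that FED-HFD lay above all others (1.68, adjusted p = 0.00328; -1.84, adjusted p = 0.000926). The acid nuclease Dnase2a (1.15 and -1.22) and the pump subunit Atp6v0a1 (0.63 and -0.71) were called in both, and without mouse 23 Atp6v0a1 was under the fold minimum in the first (0.54). Atp6v0d1, the widely expressed d subunit paralog of Atp6v0d2, was at 140.2 to 201 CPM in FED-HFD against 129 to 145 in FED-CTRL and was not called (0.16, adjusted p = 0.278; -0.13, adjusted p = 0.352). Of the relatives of Tfeb, Mitf was called in both (1.05, adjusted p = 0.0118; -0.98, adjusted p = 0.0145; 0.60 and, no longer called, -0.53 without mouse 23) and Tfe3 in neither (0.27, adjusted p = 0.136; -0.37, adjusted p = 0.0331).

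Macrophage markers moved in the same mice. Of 12 markers 9 rose in the FED diet comparison, 9 fell in the HFD maternal comparison and 6 were called in the interaction, with Cd68, itself a lysosomal glycoprotein, at log2FC of 2.11 and -2.25. Without mouse 23, 6 rose, 9 fell and 5 were called in the interaction, and the calls lost were the rises of Mrc1 (0.41), Itgam (0.58, adjusted p = 0.282) and Csf1r (0.48) and the interaction of Fcgr1 (-1.09, adjusted p = 0.0781). C1qa, C1qb and C1qc were the 3 not called in either. The summed CPM of all 12 markers was 1812 to 2594 in FED-CTRL (median 2247), 2797 to 12336 in FED-HFD (median 4340), 1435 to 2954 in CR20-CTRL (median 2166) and 1536 to 2526 in CR20-HFD (median 1975), and mouse 23 was again highest at 12336. Adipocyte markers summed to 27574 to 31950.0 CPM in FED-CTRL and 10866 to 29634 in FED-HFD, 11752 to 38039 in CR20-CTRL and 28950 to 33164 in CR20-HFD, and 0 of 8 were called (edgeR, 2 and 1 at an unadjusted p below 0.05 in the 2 comparisons, where 25.7% and 29.8% of all genes were). None of the 6 lymphocyte markers tested was called. Hepatocyte genes summed to 69.7 to 270.1 CPM in FED-CTRL, 7.79 to 862 in FED-HFD, up to 952 in CR20-CTRL and 102 to 987 in CR20-HFD. Cyp2e1 made up most of the highest sum in the groups other than FED-HFD. It was at 238 CPM in FED-CTRL mouse 42, 900.4 in CR20-CTRL mouse 33 and 959 in CR20-HFD mouse 32. In FED-HFD mouse 10, whose sum was 862 CPM, it was at 83.2 CPM. Of the 6 hepatocyte genes tested, Apoa1 (6.49, adjusted p = 0.0194; -5.60, adjusted p = 0.0249) and Ttr (6.19, adjusted p = 0.024; -4.97, adjusted p = 0.0376) were called in both comparisons and in the interaction, and Cyp2e1 was higher in the HFD maternal comparison (3.28, adjusted p = 0.00903). Without mouse 23, 2 of the 6 were called in the FED diet comparison, 5 in the HFD maternal comparison and 3 in the interaction. Of all genes, 3.41% were called higher and 0.657% lower, 1.15% and 4.19%, and 0.0805% and 1.7%, in that order. With all mice Cyp2e1 went the other way from Apoa1 and Ttr, so these counts may mix directions. Apoa1 was at 109.6 and 14.9 CPM in FED-HFD mice 10 and 13 and at 40.9 in CR20-CTRL mouse 5, and at most 1.65 in any other mouse. Without mouse 10, mouse 13 or CR20-CTRL mouse 5 in turn, 24, 22 and 24 members rose in the FED diet comparison, 25, 23 and 23 fell in the HFD maternal comparison, and 19, 5 and 0 were called in the interaction. In bulk tissue more macrophages and more lysosomal RNA per cell cannot be told apart, and the part of these markers in the members' changes was not tested. Among mice with animal numbers under 20, the summed CPM of the members was 16327 to 24422 in FED-HFD and 11327 to 14050 in the other groups, and with the number range as a covariate 21 members rose in the FED diet comparison and 24 fell in the HFD maternal comparison.

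**Figure D4:**
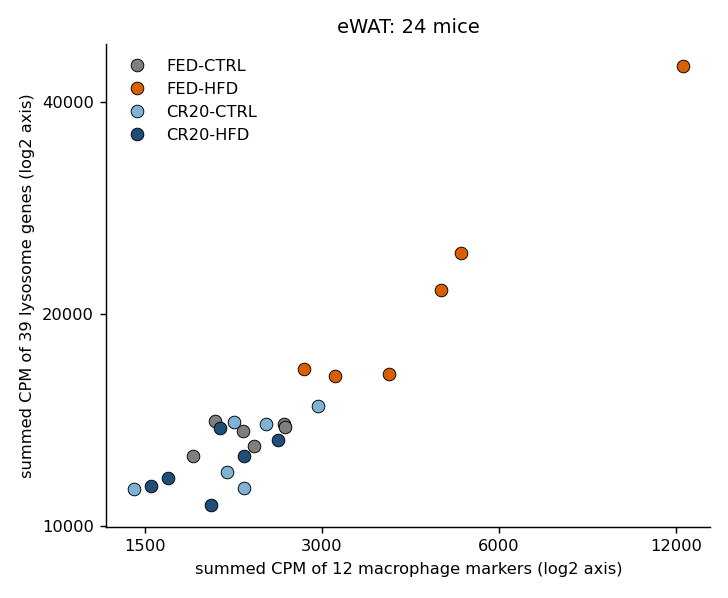
Summed CPM of the 39 lysosome genes (y axis, log2 scale) against summed CPM of 12 macrophage markers (x axis, log2 scale) in eWAT; each point is 1 of 24 mice, coloured by group. The FED-HFD mice lie from 16327 to 44967 for the lysosome genes, above all others, and from 2797 to 12336 for the markers, where 1 CR20-CTRL mouse (2954) lies above the lowest of them; the point at 12336 is mouse 23.

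In liver no member was called in any comparison by edgeR, limma voom or DESeq2. All 39 were tested, with 0.109% of all genes called in the FED diet comparison, 0.522% in the CR20 diet comparison and 0% in the HFD maternal comparison, the CTRL maternal comparison and the interaction. At an unadjusted p below 0.05 there were 0, 2, 0, 1 and 0 members in that order, against 6.66%, 9.57%, 3.58%, 2.17% and 1.76% of all genes, and member medians lay between -0.09 and 0.01. Summed CPM was 4899 to 5736 in FED-CTRL, 4819 to 5874 in FED-HFD, 4783 to 6616 in CR20-CTRL and 4521 to 5510 in CR20-HFD, all overlapping. The members with the smallest p were Ctsk in the CTRL maternal comparison and Atp6v1a and Ctsd in the CR20 diet comparison. Ctsk was near the floor, at 6 to 13 counts per library in FED-CTRL (0.457, 0.515 and 0.816 CPM) and 11 to 22 in CR20-CTRL (0.643, 1.01 and 1.79 CPM), with a log2FC of 0.91 (SE 0.339, adjusted p = 0.999). Atp6v1a was at 25.4, 30.5 and 60.2 CPM in CR20-CTRL and 17.9, 26.2 and 34.8 in CR20-HFD (-0.51, adjusted p = 0.391), and Ctsd at 227, 274 and 768 CPM and 219, 255 and 330.1 CPM (-0.61, adjusted p = 0.437).

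In pituitary 38 of the 39 members passed the filter on low counts. Atp6v0d2 did not, having at most 6 counts in any pituitary library. None was called by the 3 tools in any comparison, and 0% of all genes were. At an unadjusted p below 0.05 were 5 members in the FED diet comparison, 2 in the HFD maternal comparison, 8 in the CR20 diet comparison, 2 in the CTRL maternal comparison and 3 in the interaction, against 9.64%, 6.77%, 7.28%, 17.3% and 11% of all genes. Ctss was at 34, 45.2 and 48.6 CPM in FED-CTRL, 47.6, 54.7 and 97.7 in FED-HFD, 34.5, 44 and 55.9 in CR20-CTRL and 48, 56.4 and 76.2 in CR20-HFD, with a log2FC of 0.53 (SE 0.142, unadjusted p = 0.000754, adjusted p = 0.207) in the FED diet comparison. Ctsc was at 8.93, 11.6 and 12 CPM in FED-CTRL and 10.9, 14.3 and 27.8 in FED-HFD (0.58, adjusted p = 0.207). Sgsh, a heparan sulfatase, had a log2FC of the other sign, at 33, 34.4 and 35.7 CPM in FED-CTRL and 26.9, 27.9 and 32.4 in FED-HFD without overlap (-0.26, adjusted p = 0.207). FED-CTRL also lay above CR20-CTRL, at 27.2, 29.6 and 31.9 CPM (-0.21, adjusted p = 0.137), while CR20-HFD, at 26.2, 32.2 and 35.3, overlapped with both. The share of all pituitary genes without overlap in these comparisons is not given. Macrophage markers summed to 259.8 to 311 CPM in pituitary of FED-CTRL mice and 273 to 467 in FED-HFD mice, and their part was not tested. The pituitary library of FED-HFD mouse 10 held adipocyte genes, with a marker sum of 359.6 CPM against 112 to 164 in the other 23 libraries and Adipoq, an adipocyte hormone, at 14.5 CPM against at most 0.251. Without it the log2FC in the FED diet comparison were 0.60 for Ctss, 0.67 for Ctsc and -0.29 for Sgsh (adjusted p = 0.149, 0.149 and 0.165 by edgeR).

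The 3 tissues of the same 6 FED-CTRL mice differed in which members they expressed. In counts per kilobase of exon, scaled to a common library sum (the TPM scale) so that genes can be compared, Psap had the highest median in each tissue, at 2822 in eWAT, 544 in liver and 1311 in pituitary. In eWAT it was followed by Ctsd (2123) and Ctsb (1648), whose ranges over the 6 mice (2014 to 2389 and 1605 to 1700) did not overlap, then by Ctsl (766), Npc2 (684) and Lamp1 (679), whose ranges did. The lowest in eWAT were Npc1 (17.4), Tfeb (13.4) and Cln3 (11.9). In liver Lamp1 (451), Ctsd (338) and Ctsb (315) came next, each overlapping with its neighbour and Lamp1 with Psap. In pituitary Ctsd (276), Ctsb (273) and Lamp1 (236) followed, with ranges that overlapped among themselves and not with Psap.

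**Figure D5:**
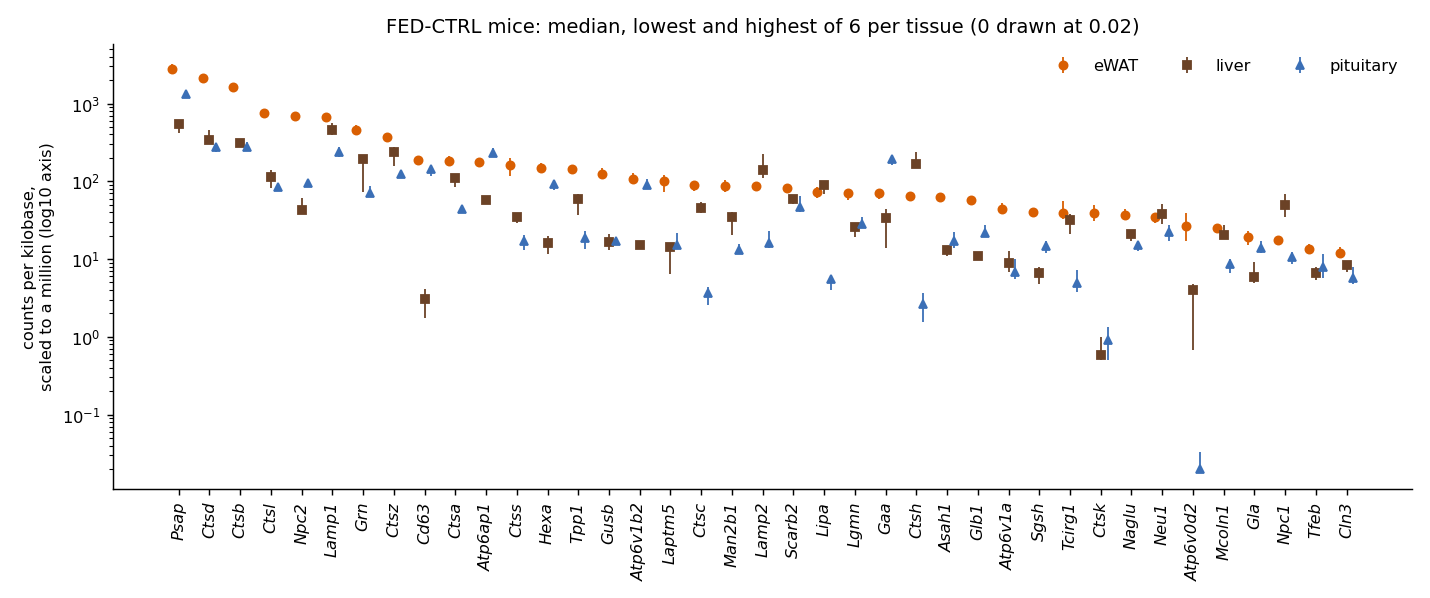
Level of each member in the 3 tissues of FED-CTRL mice as TPM-scaled counts per kilobase of exon (y axis, log10 scale), ordered by the eWAT median; points are medians and bars run from the lowest to the highest of 6 mice. Psap has the highest median in every tissue, Cd63 and Ctsk are low in liver, and Atp6v0d2 has a median of 0 in pituitary.

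By edgeR, 17 members were higher and 8 lower in eWAT than in liver (35.3% and 27.5% of all genes), 20 higher and 6 lower in eWAT than in pituitary (34.4% and 35.5%), and 13 higher and 16 lower in pituitary than in liver (40.6% and 35%). These counts are a description beside that background. The liver RNA was extracted with another protocol than that of the other 2 tissues, so that tissue and extraction cannot be told apart. By the fit, the 11 members higher in eWAT than in both were Asah1, Atp6v0d2, Atp6v1a, Ctsb, Ctsd, Ctsk, Ctsl, Ctss, Gusb, Laptm5 and Npc2, and Neu1, a sialidase, was lower in eWAT than in both. On the TPM scale others, such as Psap, Lamp1 and Cd63, also had higher medians in eWAT than in both. The direction depended on the scale for several members, since the fit used TMM factors and the TPM scale takes each gene as a share of its library. Scarb2, Tcirg1 and Mcoln1, lower than in liver by the fit (-0.68, -0.75 and -0.87), had higher per-length medians in eWAT. The same held against pituitary for Atp6v1b2, Cd63 and Gla (-1.02, -0.85 and -0.80), while Neu1 was at 35.2 in eWAT, 37.7 in liver and 22.6 in pituitary. Of those 11, 7 rose in the FED diet comparison (median log2FC 0.76), and of the other 28, 15 did (median 0.62). In the HFD maternal comparison 9 of the 11 fell (median -1.13) and 14 of the 28 (median -0.59). Without mouse 23, 4 of the 11 and 7 of the 28 rose, and 8 of the 11 and 9 of the 28 fell. These sets follow the fit alone and would hold other members on the TPM scale. The difference between them was not tested. In liver Cd63 was low, at 3.08 against 186 in eWAT and 143 in pituitary (log2FC of eWAT vs liver 4.82), and Npc1 was high, at 49.7 against 17.4 and 10.7 (-2.63). Ctsh was at 169 in liver, 64.8 in eWAT and 2.61 in pituitary, and Lipa at 90.6, 72.7 and 5.62. The pituitary was highest in Gaa, at 194 against 70.4 in eWAT and 34.0 in liver (eWAT vs pituitary -2.74).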

How the data were processed

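The authors prepared stranded TruSeq libraries, trimmed reads with Trimmomatic (quality under 20, minimum 36 bases) and aligned them to GRCm39 with STAR. They deposited whole-number counts per gene made with Subread's featureCounts, with Ensembl identifiers and no normalization. The strand setting of the counting is not given in the sources used here, so members with an overlapping antisense gene (among them Lamp1, Ctsa, Ctsz and Grn) or a same-strand one (Ctsd, Ctsl and Glb1) are less certain.

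Genes were named from GENCODE M39. From the deposited counts, edgeR 4.0.16 (R 4.3.3) was run per tissue on 24 libraries with filterByExpr, TMM factors and the quasi-likelihood test, two-sided, with Benjamini-Hochberg adjustment over all genes of a comparison. A member was called at an adjusted p below 0.055 and an absolute log2FC of at least 0.58. limma 3.58.1 and DESeq2 1.42.0 were alternatives, and the fits were tested on simulated data. No library pair of a group held identical counts. CPM used TMM factors, and 3 counts were the floor. Same-numbered samples came from the same mouse in the 3 tissues, and same-mouse correlations ran from -0.02 to 0.20, so the tissue fits were repeated with the mouse as a replicate block, which changed no count; groups within a tissue hold different mice. Replicates are separate mice. Alternatives are given in the closing section.

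The members and lists were chosen with earlier results of these data known. Named in eWAT were, per role, the 2 members with the smallest p in CR20-HFD vs FED-HFD and the one with the largest, in liver and pituitary the 3 with the smallest p, and of the other lysosomal genes the 3 with the smallest p with Atp6v0d1, Tfe3 and Mitf. Atp6v0d2 was described by mouse after its values were seen. Marker lists covered macrophages, adipocytes, epididymis and testis, hepatocytes, pituitary endocrine cells and lymphocytes. Protein sequences were not used here.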

Additional observations from a re-analysis of the deposited data

Results flagged for a closer look

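In 104 groups of 6 mice, those of the named genes, the highest or lowest mouse was tested for a gap over 0.625 of the group's range to its nearest neighbour, and chance passes about 1 in 20 groups. In eWAT of FED-HFD, mouse 23 was such a mouse for Laptm5 (640.3 CPM), Npc1 (102), Mcoln1 (74.1), Ctss (1930), Lgmn (750.3), Gla (125), Gusb (526), Lipa (1602), Psap (10078), Tcirg1 (753), Atp6v1a (515), Atp6ap1 (341), Grn (1269) and Tfeb (64.5). It was also so for the other lysosomal genes Slc11a1 (400.3 CPM) and Dnase2a (139.9). Its macrophage marker sum, 12336 CPM, was the highest and its adipocyte marker sum, 10866 CPM, the lowest of all 24 mice, and their part was not tested. In eWAT of FED-CTRL, mouse 24 was lowest for Ctsc (104 CPM) and highest for Tcirg1 (88.5 CPM). In liver, CR20-HFD mouse 6 was lowest for Ctsk (0.232 CPM) and FED-HFD mouse 11 highest for Ctsd (468 CPM). In pituitary, CR20-HFD mouse 31 was highest for Ctss (76.2 CPM).

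The response to the high fat diet differed between FED and CR20 offspring by the interaction term for Atp6v0d2 (log2FC -3.38), Lipa (-2.41), Ctss (-2.33), Tcirg1 (-2.10), Gla (-1.96), Laptm5 (-1.80), Lgmn (-1.54), Psap (-1.27), Atp6v1a (-1.11) and Man2b1 (-1.08). Without mouse 23, Lipa (-1.70), Ctss (-1.81), Tcirg1 (-1.44), Gla (-1.35), Laptm5 (-1.31), Lgmn (-1.12), Psap (-0.88) and Atp6v1a (-0.73) were still called, and Atp6v0d2 (-2.61) and Man2b1 (-0.79) were not. No member was called in 9 of the 24 fits that left out 1 mouse, nor in the fit without the epididymis libraries. limma voom without quality weights also called none, while DESeq2 called 19. The share of all genes called in these fits is not given.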

How the results depend on the processing

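In FED-HFD vs FED-CTRL in eWAT, 22 members were called. The count was 9 with a minimum log2FC of 1, 14 by limma voom with quality weights and 15 with only the groups compared. It was 11 to 24 when leaving out each mouse in turn, and 18 to 26 under the other settings. In CR20-HFD vs FED-HFD, with 23, it was 14 with a minimum log2FC of 1, 17 to 25 when leaving out each mouse, and 18 to 33 otherwise. The interaction, with 10, gave 0 by limma voom without quality weights, 19 by DESeq2, 0 without the epididymis libraries, 0 to 19 when leaving out each mouse, and 9 or 10 otherwise; its fit already uses all 4 groups, so a fit to fewer was not run. The causes were not tested. For these 3 comparisons the share of all genes is given only for the main fit and the fit without mouse 23. In eWAT the members' median standard deviation of log2 CPM was 0.546 in FED-HFD and 0.124 in FED-CTRL. It was 0.231 in CR20-CTRL and 0.151 in CR20-HFD, while the main fit shared 1 estimate of the spread over all 4 groups. Called in every fit that left out 1 mouse were 11 of 22, 17 of 23 and 0 of 10. Ctsc in FED-HFD vs FED-CTRL turned from 0.05 to -0.11 with quality weights and ranged from -0.05 to 0.10 when leaving out each mouse. The mouse as a replicate block left the tissue counts at 25, 26 and 29. Groups of a tissue hold different mice, and the labels give no litter that could pair them, so no paired analysis between groups was possible. Liver and pituitary counts were 0 in all 358 values computed. At these depths, 3 counts are 0.109 to 0.305 CPM, which limits Ctsk in liver and Atp6v0d2 in pituitary.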

Other observations

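In eWAT, 4 CR20 mice were low in several members whatever their diet, a pattern noticed in the data and not tested. CR20-CTRL mice 33 and 48 were at 98.1 and 80.6 CPM for Ctss and CR20-HFD mice 31 and 32 at 109 and 117, while the other 8 CR20 mice were at 153 or more. The same 4 mice had the lowest Atp6v0d2 (2.1 to 5.53 CPM) and Ctsk (12 to 23.7 CPM) of the CR20 mice. Their macrophage marker sums were 2066, 1435, 1536 and 1940 CPM (mice 33, 48, 31 and 32), against 1643 to 2954 CPM in the other 8, and the part of these markers was not tested. Their hepatocyte marker sums were 566 to 987 CPM, of which Cyp2e1 alone made up 540.4 to 959 CPM, while Apoa1 (0.0501 to 1.65 CPM) and Ttr (0.0955 to 0.744 CPM) were near 0.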
